A study of Mus musculus with 18 samples.

Results

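The nuclear genes for the subunits of the 5 oxidative phosphorylation complexes were followed through a polysome profiling experiment on mouse myeloid-derived suppressor cells. Members were the protein-coding genes whose symbol marks a subunit of NADH dehydrogenase (complex I, symbols Ndufa, Ndufb, Ndufc, Ndufs and Ndufv), succinate dehydrogenase (complex II, Sdha to Sdhd), the cytochrome bc1 complex (complex III, Uqcr and Cyc1), cytochrome c oxidase (complex IV, Cox4 to Cox8) or ATP synthase (complex V, Atp5). The rule uses symbols and no measured value. Complexes were also assigned by symbol alone, which need not match where each protein sits or whether it is a structural subunit. This gave 86 of the 54838 genes in the count table, with 37 in complex I, 4 in complex II, 9 in complex III, 18 in complex IV and 18 in complex V.

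All cells came from wild-type (WT) C57BL/6 mice. Suppressor cells were differentiated from bone marrow for 5 days and sorted into LY6G cells (Cd11b high, Ly6G high, Ly6C intermediate) and LY6C cells (Cd11b high, Ly6G negative, Ly6C high). They were put back in culture and harvested on the following day in cycloheximide, which holds ribosomes on mRNA. Unsorted bone marrow (BM) flushed from femurs of 3 mice, with red cells lysed, was the comparison tissue. From each of these, RNA of the polysomal fractions of a sucrose gradient (polysomal RNA) and total RNA were sequenced after ribosomal RNA depletion. The 6 groups were LY6G polysomal, LY6G total, LY6C polysomal, LY6C total, BM polysomal and BM total RNA, with 3 libraries each, numbered 2, 3 and 6 in the sorted cells and 1, 2 and 3 in BM. The labels do not say which animals or cultures the numbers stand for, so p-values measure the spread between these libraries, which may be technical. BM was neither cultured nor sorted, and culture, sort and tissue cannot be told apart in any difference from it.

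Oxidative phosphorylation passes electrons from NADH and succinate through complexes I to IV to oxygen and uses the resulting proton gradient to make ATP at complex V. Most of its subunits are encoded in the nucleus, translated on cytosolic ribosomes and imported, while a small core is encoded and translated inside mitochondria. Myeloid cells differ in how far they rely on it, neutrophils being known for heavy use of glycolysis and few mitochondria.

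Promoters of these genes are known to carry sites for NRF1, GABP (NRF2) and YY1, and the 3 promoters below are shown as the members with an NRF1-type match that had the highest levels in total RNA of the sorted cells. Of 85 distinct member symbols, 66 had a promoter in the RefSeq tables (GRCm38.p6), taken as 250 bases before to 50 bases after the start. The NRF1-type motif GCGCATGC was present on either strand in 10 of 66 member genes (15.2%), against 3.05% of 27025 genes. The YY1-type motif AAGATGGC was present in 9 of 66 (13.6%), against 3.19%, and the GABP-type motif CCGGAAGT in 5 of 66 (7.58%), against 4.31%. At least 1 of the 3 motifs was found in 23 members (34.8%), against 9.91% of all genes. The sequences run 5′ to 3′ over the 250 bases before the start, and capitals mark the NRF1-type match; in Cox6a1 the match on one strand overlaps a match on the other. A match is a description of letters and not evidence of binding.
Cox6a1 (chr5:115348959-115349208, minus strand): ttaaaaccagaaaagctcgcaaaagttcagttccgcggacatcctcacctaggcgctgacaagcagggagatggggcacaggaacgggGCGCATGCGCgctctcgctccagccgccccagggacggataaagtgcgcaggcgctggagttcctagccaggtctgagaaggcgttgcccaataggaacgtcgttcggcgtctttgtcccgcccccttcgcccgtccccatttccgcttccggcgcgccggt
Sdhb (chr4:140961021-140961270, plus strand): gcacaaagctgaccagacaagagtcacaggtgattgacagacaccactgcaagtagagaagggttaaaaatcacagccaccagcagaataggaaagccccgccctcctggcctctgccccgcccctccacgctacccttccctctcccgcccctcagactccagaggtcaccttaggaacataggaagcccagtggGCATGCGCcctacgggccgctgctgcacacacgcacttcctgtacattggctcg
Ndufa8 (chr2:36049339-36049588, minus strand): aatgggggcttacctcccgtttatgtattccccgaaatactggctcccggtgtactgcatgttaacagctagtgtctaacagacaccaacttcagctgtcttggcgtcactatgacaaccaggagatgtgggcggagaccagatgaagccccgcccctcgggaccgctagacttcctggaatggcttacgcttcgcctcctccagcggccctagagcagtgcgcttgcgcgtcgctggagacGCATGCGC
Cox6a1 encodes a subunit of complex IV, Sdhb the iron-sulfur subunit of complex II and Ndufa8 an accessory subunit of complex I. Cox6a1 was at 30.7, 31.9 and 18.4 CPM in LY6G and 21.2, 40.9 and 62.2 CPM in LY6C polysomal libraries, against 19.1 to 26.02 CPM in the 3 BM polysomal libraries, which overlap both.

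Total counts were 8559897 to 26225431 per library, but their use differed widely between groups. Nuclear protein-coding genes (without Lars2, whose counts resemble ribosomal RNA) took 3236711 to 19740255 counts in sorted-cell libraries, 274914 to 598151 in BM polysomal and 54944 to 76341 in BM total libraries. The members summed to 15248 to 115056 counts in sorted cells, 1833 to 4612 in BM polysomal and only 295 to 395 in BM total RNA. Levels are in CPM, for which the counts of a library are divided by its TMM-adjusted size, and 1 CPM stood for 18.04 to 110.3 counts in sorted cells, 1.73 to 3.51 in BM polysomal and 0.472 to 0.611 in BM total RNA. BM values therefore carry large counting error, and 9 tested members had 0 counts and 17 had 1 to 3 counts over the 3 BM total libraries. Summed markers of red cells were at 519 to 1239 CPM in BM libraries and 0.127 to 7.55 CPM in sorted cells, and stromal and endothelial markers at 1985 to 6804 against 5.49 to 47.98 CPM. Monocyte and macrophage markers were at 813 to 2913 CPM in sorted cells and 82.6 to 188.5 CPM in BM. Neutrophil markers were at 606.5 to 1043 CPM in LY6G polysomal, 929 to 4163 in LY6C polysomal and 1770 to 2559 in BM polysomal libraries, and at 379.7 to 918.8, 371 to 3351 and 741.7 to 760 CPM in LY6G, LY6C and BM total libraries. The part of these marker differences in the results below was not tested, and in bulk RNA fewer cells of a type and less RNA per cell cannot be told apart.

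Of the 86 members, 77 passed the filter on low counts and were tested among 14181 genes. The 9 others were listed at 0 in all 18 libraries (Ndufs3, Uqcrc1, Cox7b2, Cox8b, Cox8c and a second Atp5o identifier), at 1 count in all (Atp5a1) or at a few counts (Cox4i2 and Ndufa4l2). Ndufs3, Uqcrc1 and Atp5a1 encode core subunits that respiring cells use, and genes within 50 kb of each were also listed at 0 (for Ndufs3, Kbtbd4 and C1qtnf4; for Uqcrc1, Slc26a6 and Tmem89; for Atp5a1, Haus1 and Pstpip2), while others there had counts (8939 for Mtch2 near Ndufs3, 13787 for Pfkfb4 and 470 for Col7a1 near Uqcrc1). A 0 here is a listing and no evidence that the gene is silent. Cox7b2 and Cox8c are known as testis isoforms, Cox8b as the heart and muscle isoform, Cox4i2 as the lung isoform and Ndufa4l2 as a hypoxia-induced relative of Ndufa4. The counting rule for reads shared with processed pseudogenes, of which many genes of this family have several, is unknown here, so levels of single members are uncertain to that extent.

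Together the members took 0.327% to 0.786% of nuclear protein-coding counts over the 18 libraries. Their share of nuclear protein-coding counts was 0.630%, 0.613% and 0.466% in LY6G polysomal libraries 2, 3 and 6, and 0.540%, 0.567% and 0.342% in LY6G total libraries. It was 0.589%, 0.786% and 0.676% in LY6C polysomal libraries 2, 3 and 6, and 0.544%, 0.723% and 0.327% in LY6C total libraries. In BM libraries 1, 2 and 3 it was 0.771%, 0.667% and 0.580% in polysomal RNA, and 0.537%, 0.517% and 0.625% in total RNA. The polysomal library had the higher share in each of the 6 same-numbered pairs of sorted cells. It did so in 2 of 3 same-numbered BM pairs, whose libraries were not shown to belong together. LY6G total libraries lay wholly below LY6C polysomal and BM polysomal libraries, and all other pairs of groups overlapped. The means were 0.570% ± 0.090 for LY6G polysomal, 0.483% ± 0.123 for LY6G total, 0.684% ± 0.099 for LY6C polysomal, 0.531% ± 0.198 for LY6C total, 0.672% ± 0.096 for BM polysomal and 0.560% ± 0.057 for BM total RNA (SD, n = 3 each). Exact 95% binomial intervals, which cover counting error only, ran from 0.468% to 0.571% for BM total library 2 and from 0.322% to 0.332% for LY6C total library 6.

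The makeup of that share differed between sorted cells and BM. Complex IV genes held 22.3% to 28.0% of the members' counts in the 12 sorted-cell libraries, 17.8% to 18.6% in BM polysomal and 8.79% to 19.5% in BM total libraries, with no overlap. Complex I genes held 23.8% to 28.8% in sorted cells, 30.3% to 35.1% in BM polysomal and 25.3% to 37.0% in BM total libraries, which overlap the sorted cells. Complex III genes held 9.37% to 11.1% in sorted cells and 9.45% to 12.5% in BM polysomal RNA, but 17.6% to 19.8% in BM total RNA.

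**Figure D1:**
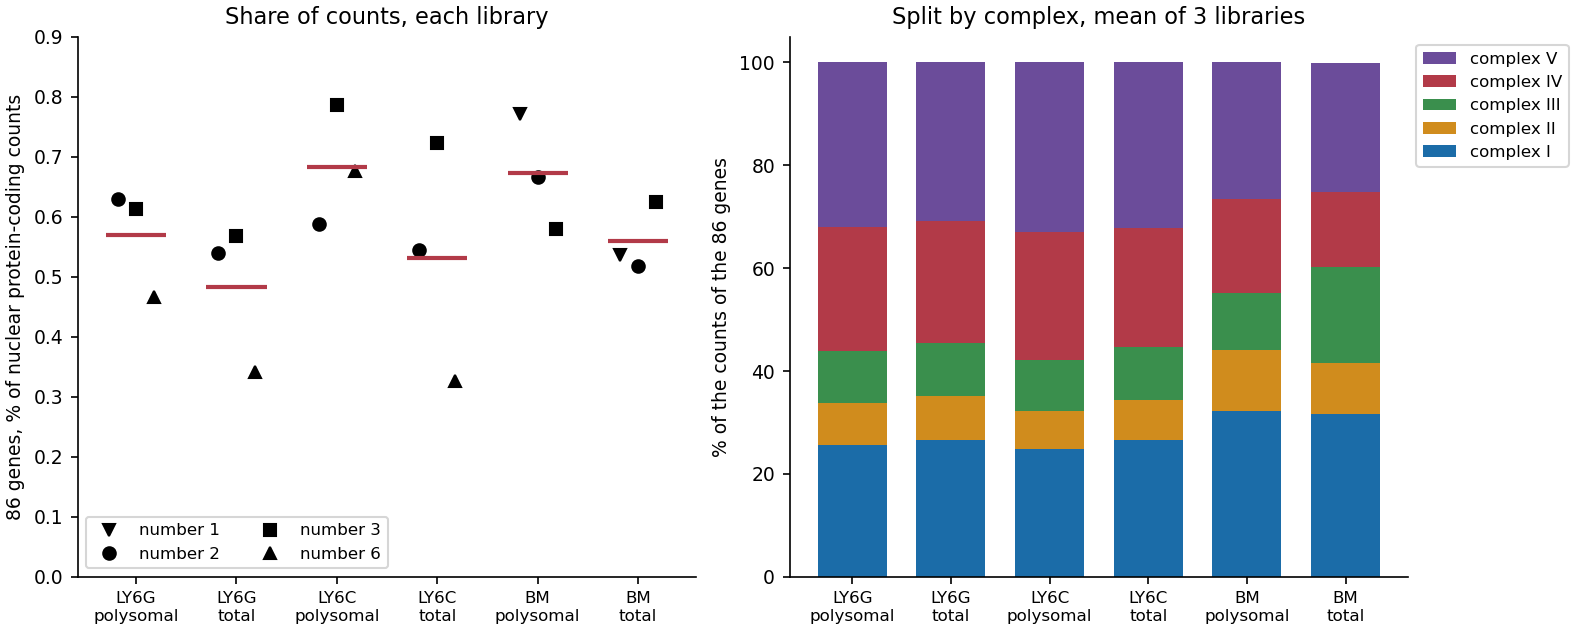
Left, share of the 86 nuclear subunit genes in nuclear protein-coding counts for each library (points, shape by library number; red line, mean of 3 libraries), in percent. Right, mean share of each complex in the members' counts; complex IV is at 23.1% to 24.9% in the sorted-cell groups and at 18.3% in BM polysomal RNA.

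Per kb of exon, the leading genes also differed. In LY6G polysomal RNA the highest members were Cox8a (48.9 CPM per kb) for complex IV, Atp5b (34.3) for complex V, Ndufa2 (22.5) for complex I, Sdhd (18.1) for complex II and Uqcrh (15.6) for complex III. In LY6C polysomal RNA they were Cox8a (90.1 CPM per kb), Atp5b (49.0), Uqcrfs1 (25.6), Ndufc2 (23.3) and Sdhd (19.8). In BM polysomal RNA they were Atp5h (52.1 CPM per kb), Cox6b1 (44.8), Uqcr11 (42.2), Ndufa13 (35.4) and Sdha (20.6). No gene led its complex in both a sorted-cell group and BM polysomal RNA. Unscaled for length, Atp5b, the catalytic beta subunit of ATP synthase, had the highest level in every group, from 145 ± 21.2 CPM in LY6G polysomal and 207.5 ± 31.7 in LY6C polysomal to 123 ± 21.9 in BM polysomal RNA (SD, n = 3 each).

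Polysomal RNA of the sorted cells was then set against polysomal RNA of BM. In LY6G cells 20 members rose and 11 fell at an adjusted p under 0.05 (edgeR's quasi-likelihood test, Benjamini-Hochberg over all genes tested), out of 77. Among all genes the test called 37.5%, with 22.1% higher and 15.3% lower. In LY6C cells 26 members rose and 6 fell, where the test called 31.4% of all genes, 20.2% higher and 11.2% lower. Called members were 40.3% of those tested in LY6G cells, 2.76 percentage points above all genes, and 41.6% in LY6C cells, 10.2 points above. The median log2 difference of the members was 0.42 in LY6G and 0.76 in LY6C cells, beside 0.45 and 0.52 for all genes tested, and it was 0.26 and 0.69 with the 2 members at 0 in BM polysomal RNA (Cox6a2 and Cox7a1) held at the lower bound that 3 counts allow. The family did not move as a block: among members with counts in BM, differences ran from -6.53 to 4.04 in LY6G and from -5.37 to 4.34 in LY6C cells. Both comparisons use the same 3 BM libraries. The count in LY6C cells dropped to 18 when BM polysomal library 3 was left out, and was 18 to 29 when single libraries were left out; the count in LY6G cells was then 22 to 27.

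Among members with counts in BM, Cox7c and Cox7a2, small subunits of complex IV, rose most. Ndufa1 of complex I came next, by 3.01 in LY6G and 3.69 in LY6C cells, on 5 BM counts. Non-member genes with coding lengths of at most 408 bases had median differences of 0.85 in LY6G and 0.94 in LY6C cells (n = 624). These lay above the members' medians of 0.42 and 0.76, and the part of length in the rises was not tested. Cox7c, a nuclear-encoded accessory subunit of cytochrome c oxidase, was at 13.9, 12.2 and 11.9 CPM in LY6G and 9.84, 17.8 and 19.0 CPM in LY6C polysomal libraries 2, 3 and 6, against 0.571, 1.74 and 0.351 CPM in BM polysomal libraries 1, 2 and 3. Each sorted-cell library lay above each BM library, whose values rest on 2, 3 and 1 counts. This gene was picked partly for that lack of overlap, which therefore adds no support. The log2 difference was 4.04 (SE 0.62, adjusted p = 4.8e-05) in LY6G and 4.34 (SE 0.62, adjusted p = 2.9e-05) in LY6C cells. Cox7a2, the common isoform of its subunit family, stood at 17.5, 12.99 and 13.6 CPM in LY6G and 19.4, 17.3 and 25.9 CPM in LY6C cells, against 0.856, 2.31 and 0.351 CPM in BM. It rose by a log2 difference of 3.84 (SE 0.63) in LY6G and 4.34 (SE 0.63) in LY6C cells, on 8 BM counts. Cox8a, the ubiquitous form of the smallest complex IV subunits, was at 36.7, 27.7 and 26.4 CPM in LY6G and 30.9, 55.8 and 80.6 CPM in LY6C cells, against 5.42, 8.10 and 0.703 CPM in BM. Its log2 difference was 2.74 (SE 0.63, adjusted p = 0.00228) in LY6G and 3.62 (SE 0.65, adjusted p = 0.000312) in LY6C cells. Cox4i1, the common isoform of the subunit that binds regulatory nucleotides, passed the test in LY6C cells (95.8 ± 37.8 CPM, log2 difference 1.56, SE 0.36) and had 51.7 ± 1.16 CPM in LY6G cells, against 32.4 ± 3.65 CPM in BM (SD, n = 3 each). Cox5a, Cox6a1 and Cox6b1 passed in neither.

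Of the complex IV members that fell, Cox6b2 moved furthest. It is known as the testis form of the subunit whose common form is Cox6b1, and had 3, 7 and 5 counts in LY6G and 2, 11 and 2 counts in LY6C polysomal libraries, against 23, 7 and 12 counts in the much shallower BM polysomal libraries. That is 0.051 ± 0.019 CPM in LY6G, 0.127 ± 0.135 in LY6C and 4.94 ± 1.40 CPM in BM (SD, n = 3 each), a log2 difference of -6.53 (SE 0.86) and -5.37 (SE 0.84). Cox6b1 was at 32.4 ± 2.09 CPM in LY6G and 31.7 ± 2.32 CPM in BM polysomal RNA, a log2 difference of 0.03 (SE 0.35). Cox5b, a nuclear-encoded subunit, fell in LY6G cells (-1.19, SE 0.42, adjusted p = 0.0315), while in LY6C cells it had 17.0 ± 8.17 CPM, against 17.0 ± 6.95 CPM in BM.

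Of 16 complex V genes, 6 rose and 1 fell in LY6G cells, where 22.1% of all genes rose and 15.3% fell. In LY6C cells 7 rose and 0 fell, where 20.2% of all genes rose and 11.2% fell. Atp5mpl, a small membrane subunit, was at 15.8, 11.8 and 12.1 CPM in LY6G and 10.1, 18.7 and 33.1 CPM in LY6C polysomal libraries, against 1.71, 0.578 and 2.46 CPM in BM. Its log2 difference was 2.96 (SE 0.59) in LY6G and 3.60 (SE 0.59) in LY6C cells, on 14 BM counts. Atp5f1, subunit b of the peripheral stalk, rose by 2.22 (SE 0.51) and 2.79 (SE 0.52), and Atp5j, another stalk subunit, by 1.75 (SE 0.41) and 2.32 (SE 0.41). The stalk subunit Atp5h went the other way in LY6G cells, with 21.4, 22.7 and 21.3 CPM against 113.8, 55.5 and 59.7 CPM in BM (log2 difference -1.81, SE 0.38, adjusted p = 0.00104). In LY6C cells Atp5h had 49.3 ± 21.9 CPM and did not pass. The 3 genes of the membrane-ring subunit c, which encode the same mature protein, differed among themselves. Atp5g1 rose in LY6C cells (log2 difference 1.65, SE 0.48, lost without BM polysomal library 3 at 1.26) and was at 1.20 (SE 0.48, adjusted p = 0.0564) in LY6G cells. Atp5g2 had differences of -0.67 in LY6G and 0.10 in LY6C cells and Atp5g3 of -0.09 and 0.51, and neither gene passed. The beta subunit Atp5b passed in neither (0.24 and 0.76).

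In complex II, which has no mitochondrially encoded subunit, the 4 genes split. The catalytic flavoprotein Sdha fell to 26.8, 30.7 and 30.1 CPM in LY6G and 34.4, 37.8 and 32.5 CPM in LY6C polysomal libraries, against 78.7, 90.8 and 85.04 CPM in BM. The log2 difference was -1.54 (SE 0.28, adjusted p = 0.000235) in LY6G and -1.28 (SE 0.28, adjusted p = 0.00144) in LY6C cells. The iron-sulfur subunit Sdhb was at 14.04, 14.4 and 12.7 CPM in LY6G and 11.7, 12.3 and 21.6 CPM in LY6C polysomal libraries, against 5.42, 5.20 and 3.87 CPM in BM. It rose by 1.51 (SE 0.49) in LY6G and 1.66 (SE 0.50) in LY6C cells; without BM polysomal library 3 neither call held (1.39 and 1.46), nor did that in LY6C cells without LY6C polysomal library 6 (1.35). The membrane anchor Sdhd, at 22.6, 23.7 and 20.6 CPM in LY6G, 25.9, 21.0 and 26.4 CPM in LY6C and 10.6, 8.10 and 6.68 CPM in BM polysomal libraries, rose by 1.39 (SE 0.34) and 1.52 (SE 0.34). The other anchor, Sdhc, passed in neither comparison (-0.46 and 0.13).

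Of 35 complex I genes, 5 rose and 6 fell in LY6G cells, where 22.1% of all genes rose and 15.3% fell. In LY6C cells 9 rose and 4 fell, where 20.2% of all genes rose and 11.2% fell. Ndufa13, known also as GRIM-19, was at 9.46, 8.08 and 8.17 CPM in LY6G and 7.24, 13.6 and 14.4 CPM in LY6C polysomal libraries, against 59.3, 34.7 and 38.6 CPM in BM. The log2 difference was -2.37 (SE 0.34, adjusted p = 2.3e-05) in LY6G and -1.92 (SE 0.34, adjusted p = 0.000219) in LY6C cells. Ndufv1, which carries the NADH binding site, was at 14.1, 17.6 and 14.7 CPM in LY6G and 18.4, 29.8 and 32.6 CPM in LY6C cells, against 80.7, 46.8 and 37.2 CPM in BM. It fell by 1.83 (SE 0.36) in LY6G and 1.03 (SE 0.35) in LY6C cells on the log2 scale, and the call in LY6C cells was lost without LY6C polysomal library 2 (-0.80), without LY6C polysomal library 3 (-1.08) or without BM polysomal library 1 (-0.72). Ndufa5, an accessory subunit, fell by 3.11 (SE 0.59) in LY6G and 1.95 (SE 0.57) in LY6C cells, the second lost without LY6C polysomal library 2 (-1.54) or BM polysomal library 1 (-1.57). Among the rises, Ndufa8 was at 9.36 ± 0.716 CPM in LY6G and 9.50 ± 1.29 CPM in LY6C cells, against 1.77 ± 0.921 CPM in BM (SD, n = 3 each). Its log2 differences were 2.43 (SE 0.50) and 2.45 (SE 0.50), on 14 BM counts. Ndufs1, the large iron-sulfur subunit, and Ndufa9 passed in neither.

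In complex III the hinge subunit Uqcrh rose by 2.29 (SE 0.50) in LY6G and 2.23 (SE 0.50) in LY6C cells. Uqcr11 fell in LY6G cells, at 9.62, 8.15 and 7.92 CPM against 20.5, 37.0 and 23.5 CPM in BM (log2 difference -1.64, SE 0.42, adjusted p = 0.0043), and had 15.9 ± 8.35 CPM in LY6C cells without passing. Cyc1, cytochrome c1, and Uqcrb passed in neither comparison.

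Around the complexes, other mitochondrial lists were counted in the same polysomal comparisons, in which 37.5% of all genes were called in LY6G (22.1% higher and 15.3% lower) and 31.4% in LY6C cells (20.2% higher and 11.2% lower). Of 44 assembly factors, which build the complexes, 9 rose and 2 fell in LY6G and 12 rose and 3 fell in LY6C cells. Of 18 enzymes of the tricarboxylic acid cycle, which supplies NADH and succinate, 2 rose and 1 fell in LY6G and 2 rose and 0 fell in LY6C cells. Of 75 mitochondrial ribosomal proteins, 14 rose and 7 fell in LY6G and 20 rose and 2 fell in LY6C cells. The mitochondrially encoded subunits were lower, with 5 of 7 fallen in LY6G and 6 of 7 in LY6C cells and none risen.

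**Figure D2:**
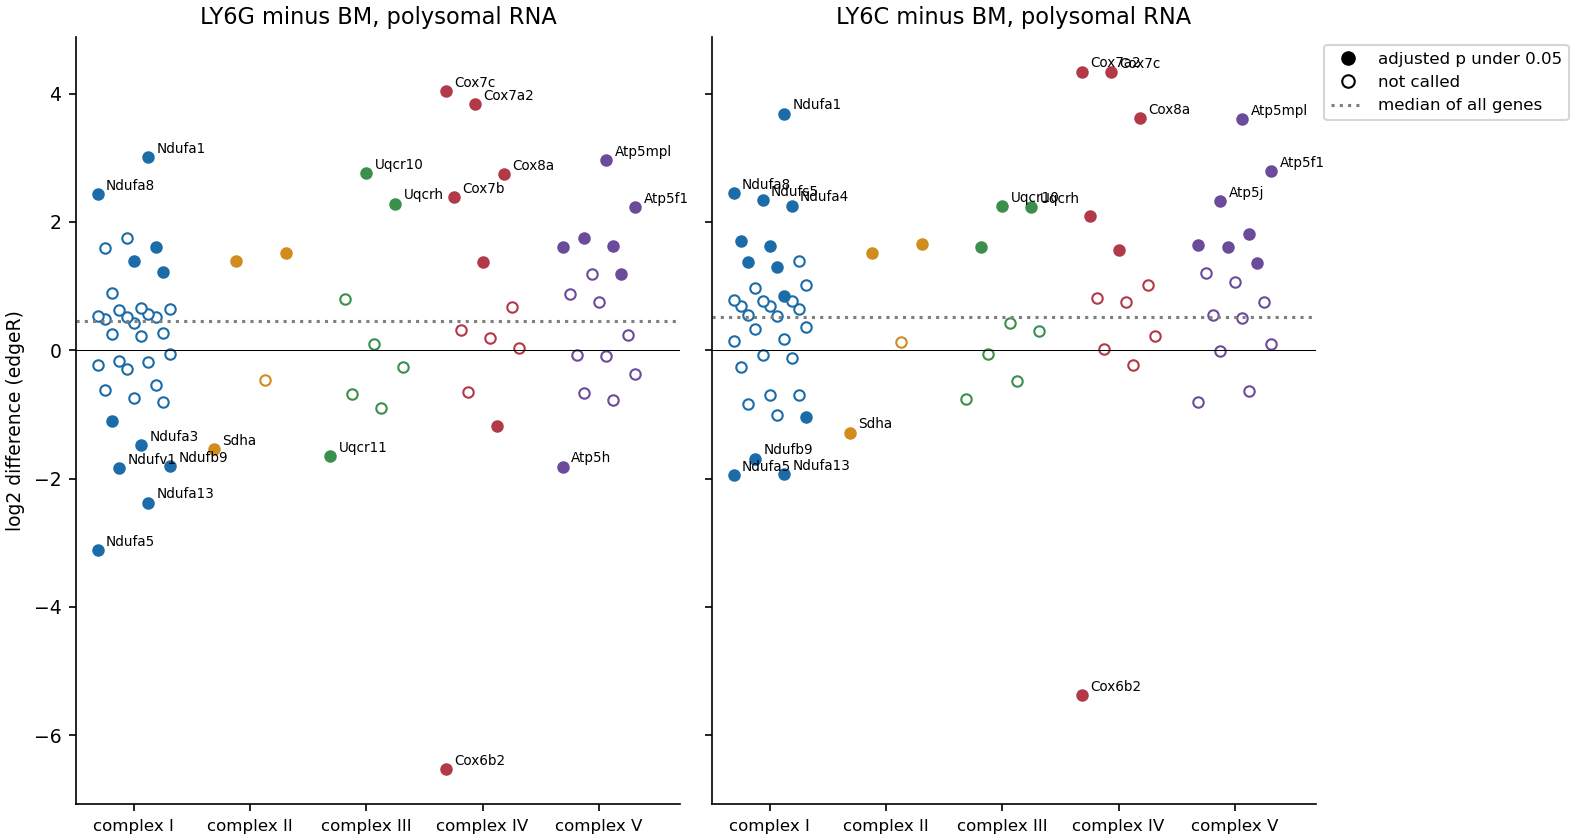
Log2 difference (edgeR) of the 75 members with counts in BM polysomal RNA, LY6G minus BM on the left and LY6C minus BM on the right, by complex. Filled points have an adjusted p under 0.05, and the dotted line is the median of all genes tested; Cox6b2 lies lowest and Cox7c and Cox7a2 highest in both panels.

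**Figure D3:**
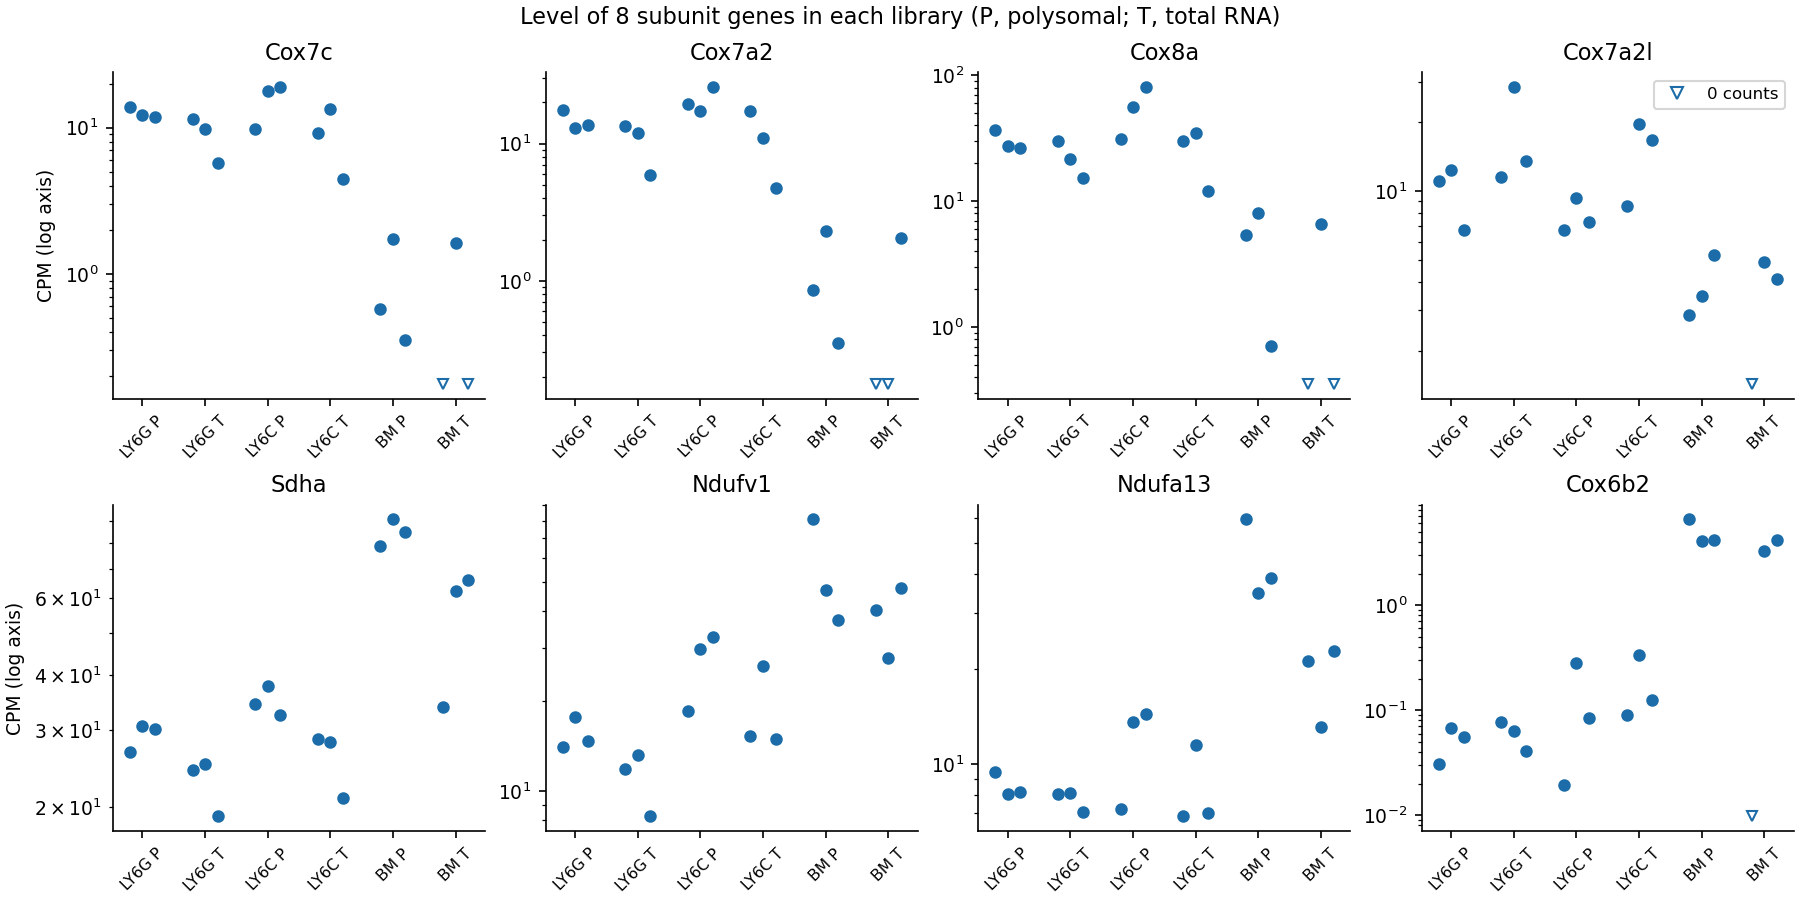
CPM in each library (log axis, 3 libraries per group; P, polysomal and T, total RNA) for 8 subunit genes, with open triangles for libraries with 0 counts, drawn at a set place below the lowest value. Cox7c, Cox7a2 and Cox8a lie higher in each sorted-cell library than in any BM library, and Sdha, Ndufv1 and Ndufa13 lie higher in each BM polysomal library than in any sorted-cell library.

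Total RNA was compared in the same way, at the low depth of BM total libraries. In LY6G cells 19 members rose and 10 fell against BM total RNA, where the test called 30.8% of all genes (21.5% higher and 9.39% lower), and in LY6C cells 17 rose and 5 fell, where it called 27.9% (20.5% higher and 7.4% lower). The median of all genes was itself shifted, to 1.63 in LY6G and 1.64 in LY6C cells, and the members' medians of 0.97 and 1.15 lay 0.67 and 0.50 below it. With the 9 members at 0 in BM total RNA held at their bounds, the members' medians were 0.75 and 0.88. The split depended on the scaling and the tool: DESeq2 called 15 higher and 12 lower in LY6G and 13 higher and 10 lower in LY6C cells. In LY6C cells median-ratio factors gave 13 higher and 7 lower, and scaling on nuclear protein-coding genes 14 and 7. Thinning every library to the same protein-coding counts left 19 members to test, with 1 higher and 7 lower in LY6G and 2 higher and 4 lower in LY6C total RNA, and 2 higher and 5 lower in LY6G and 4 higher and 3 lower in LY6C polysomal RNA. No called member changed sign with DESeq2, median-ratio factors or scaling on protein-coding genes.

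Of the calls against BM total RNA, 4 in LY6G and 3 in LY6C cells rest on members with 0 BM counts, and 10 and 8 on members with 1 to 3. Ndufs4, a complex I subunit with 0 counts in BM total RNA, was at least 3.94-fold higher in LY6G and at least 3.50-fold higher in LY6C cells, taking 3 counts over the group as the floor. Sdhd, with 3 counts, had a ratio of 10.3 (95% counting interval 3.53 to 50.1) in LY6G and 10.9 (3.71 to 52.7) in LY6C cells. Of the members with more counts, Cox6b1 rose by 2.39 (SE 0.51) in LY6G and 2.54 (SE 0.51) in LY6C cells. Sdha was at 24.4, 25.1 and 19.0 CPM in LY6G and 28.6, 28.1 and 21.0 CPM in LY6C total libraries, against 33.9, 62.2 and 66.1 CPM in BM, a log2 difference of -1.25 (SE 0.29) and -1.07 (SE 0.29). The call in LY6C cells was lost without the low-count filter (-1.05) and with the compared libraries alone (-1.35). Uqcrq, a complex III subunit, was at 12.7, 11.6 and 6.68 CPM in LY6G and 10.4, 15.2 and 6.15 CPM in LY6C total libraries, against 29.6, 32.7 and 57.9 CPM in BM (-1.95, SE 0.41, and -1.92, SE 0.41). In both populations no sorted-cell library reached the lowest BM library for either gene. Lack of overlap was a rule for naming called members and adds no support.

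Within the sorted cells the question was whether subunit mRNAs were more or less abundant on polysomes than in total RNA. No member passed the test in LY6G or LY6C cells, and no gene at all did (0% of 14181 called in each; DESeq2 called no member in either). At an unadjusted p under 0.05 there were 0 members in LY6G and 13 in LY6C cells, beside 1.79% and 3.05% of all genes. The direction was nevertheless shared by most members. The difference was positive for 67 of 77 members in LY6G and 72 of 77 in LY6C cells, beside 50% and 51% of all genes. The members' median log2 difference was 0.32 in LY6G and 0.58 in LY6C cells, beside 0.00 and 0.01 for all genes. In LY6G cells 54 of 77 were higher on polysomes in all 3 same-numbered pairs, where 28.3% of all genes were, and in LY6C cells 50 of 77, where 25.2% were.

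The size of the shift varied with the library number. In LY6G cells the members' median was 0.26, 0.15 and 0.60 in pairs 2, 3 and 6, and in LY6C cells 0.13, 0.36 and 1.58. The pair numbered 6 had the largest shift in both, and without the libraries numbered 6 the median in LY6C cells was 0.19. LY6C total library 6 had 54.5% of its counts in nuclear protein-coding genes and LY6C total library 3 had 37.3%, against 93.4% in LY6C total library 2; the part of this in the shift was not tested. Cox8a was 0.29, 0.35 and 0.78 higher on the log2 scale in LY6G pairs and 0.03, 0.68 and 2.74 higher in LY6C pairs. Cox4i1 was 0.29, 0.14 and 0.84 higher in LY6G pairs and 0.25, 0.39 and 1.84 higher in LY6C pairs.

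The lowest p-values in LY6C cells belonged to Cox5b, Uqcr11 and Atp5h. Cox5b was at 9.45, 15.9 and 25.7 CPM in polysomal libraries, against 8.24, 9.09 and 4.41 CPM in total libraries (log2 difference 1.23, SE 0.40, unadjusted p = 0.00649, adjusted p = 1 by edgeR). Uqcr11 had a difference of 1.16 (SE 0.41) and Atp5h of 1.06 (SE 0.38). Only Cox5b and Atp5h of these did not overlap. In LY6G cells Ndufa1, a small accessory subunit of complex I, had a difference of 0.62 (SE 0.43) and Ndufv1 of 0.48 (SE 0.34).

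Cox7a2l went the other way. It encodes SCAF1, a factor linked to supercomplexes of complexes III and IV, and whether it acts so in C57BL/6 mice was not examined. Cox7a2l was at 11.1, 12.3 and 6.76 CPM in LY6G polysomal libraries 2, 3 and 6, against 11.5, 28.5 and 13.6 CPM in LY6G total libraries. In LY6C cells it was at 6.74, 9.29 and 7.35 CPM in polysomal libraries, against 8.60, 19.6 and 16.7 CPM in total libraries. It was lower on polysomes in each of the 6 pairs; in LY6C cells the log2 differences were -0.35, -1.07 and -1.18. The fitted log2 difference was -0.83 (SE 0.41, unadjusted p = 0.0587) in LY6G and -0.94 (SE 0.42, unadjusted p = 0.036) in LY6C cells, with an adjusted p of 1 in both by edgeR. Lower in all 3 pairs were also Ndufb2 in LY6G, and Atp5s and Cox6b2 in LY6C cells, where 25.3% and 17.9% of all genes were.

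**Figure D4:**
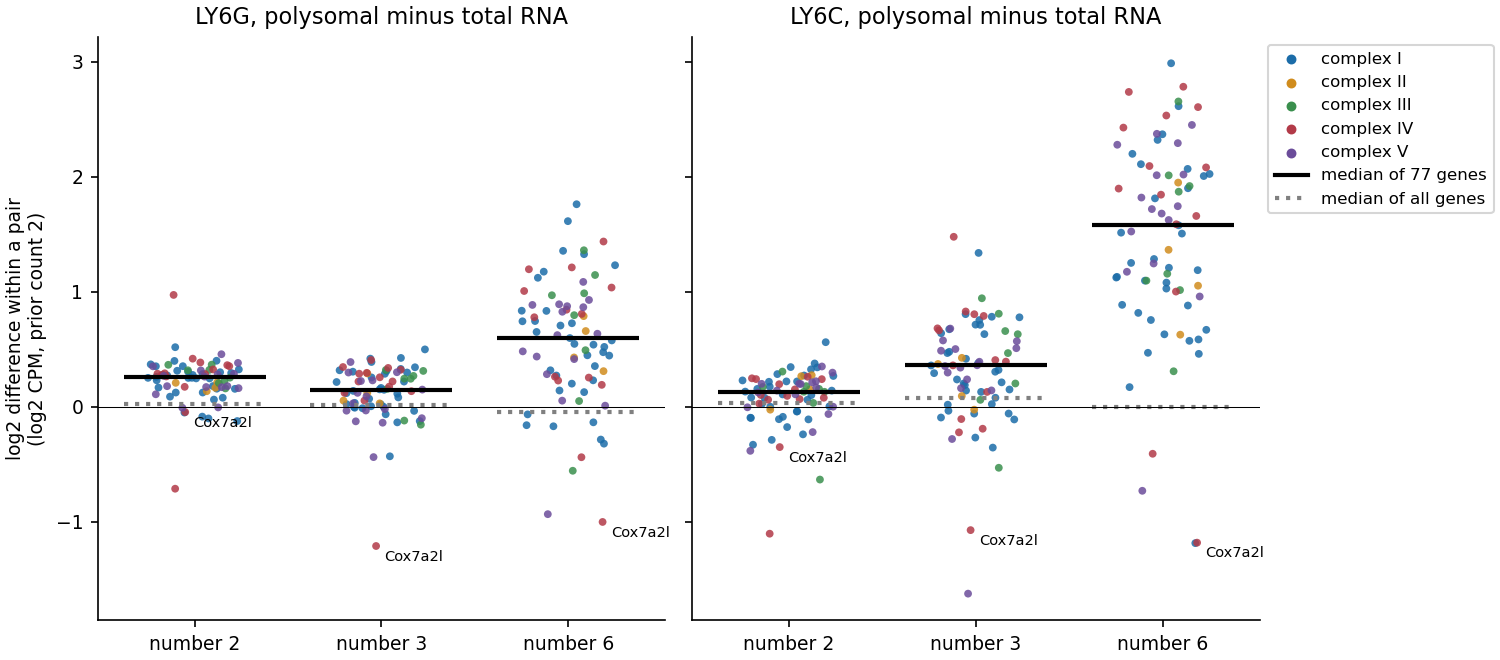
Polysomal minus total log2 CPM within each same-numbered pair for the 77 tested members (points, coloured by complex), LY6G on the left and LY6C on the right. Black lines are the members' medians and dotted lines those of all genes; the medians lie at 0.26, 0.15 and 0.60 in LY6G and at 0.13, 0.36 and 1.58 in LY6C cells, and Cox7a2l lies below 0 in each pair.

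The shift was present in all complexes, with medians of 0.28, 0.27, 0.42, 0.44 and 0.30 for complexes I to V in LY6G and 0.50, 0.50, 0.68, 0.82 and 0.74 in LY6C cells. Subunit genes are short, with a median coding length of 408 bases against 1386 for protein-coding genes tested. Non-member genes no longer than that had median differences of 0.06 in LY6G and 0.23 in LY6C cells (n = 624), smaller than the members' medians. The part of length in the shift was not tested. Across the members Spearman's rho between coding length and the difference was -0.13 in LY6G and -0.38 in LY6C cells, over 77 genes that share libraries and are not independent. No gene of the other lists followed was called. Mitochondrial ribosomal proteins had medians of 0.18 in LY6G and 0.36 in LY6C cells, tricarboxylic acid cycle enzymes 0.29 and 0.35, assembly factors 0.09 and 0.18, and cytosolic ribosomal proteins -0.21 and 0.19. The difference between these lists and the members was not tested.

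The subunits encoded in mitochondria, which are translated on mitochondrial ribosomes, were lower in polysomal RNA. Of 13 such genes, 7 were tested, with 2039 to 88308 counts over all libraries, and the 6 others had at most 14 counts. Those 6 included mt-Co2, mt-Co3 and mt-Atp6, at 14, 5 and 6 counts, and such a listing is no evidence of a low level. The ratios below therefore describe the genes listed with counts and not all mitochondrial transcripts. The 7 tested genes had median log2 differences of -1.34 in LY6G and -1.46 in LY6C cells, none above 0. The summed counts of the 13 genes were 0.129, 0.031 and 0.033 times those of the nuclear members in LY6G polysomal libraries 2, 3 and 6, against 0.201, 0.264 and 0.300 times in LY6G total libraries. In LY6C cells the ratio was 0.060, 0.036 and 0.018 in polysomal libraries, against 0.234, 0.109 and 0.138 in total libraries. In BM it was 0.359, 0.711 and 0.648 in polysomal libraries 1, 2 and 3, against 11.01, 21.0 and 11.8 in total libraries. Polysomal and total libraries did not overlap within any of the 3 sources, and BM lay above the sorted cells in both kinds of RNA.

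**Figure D5:**
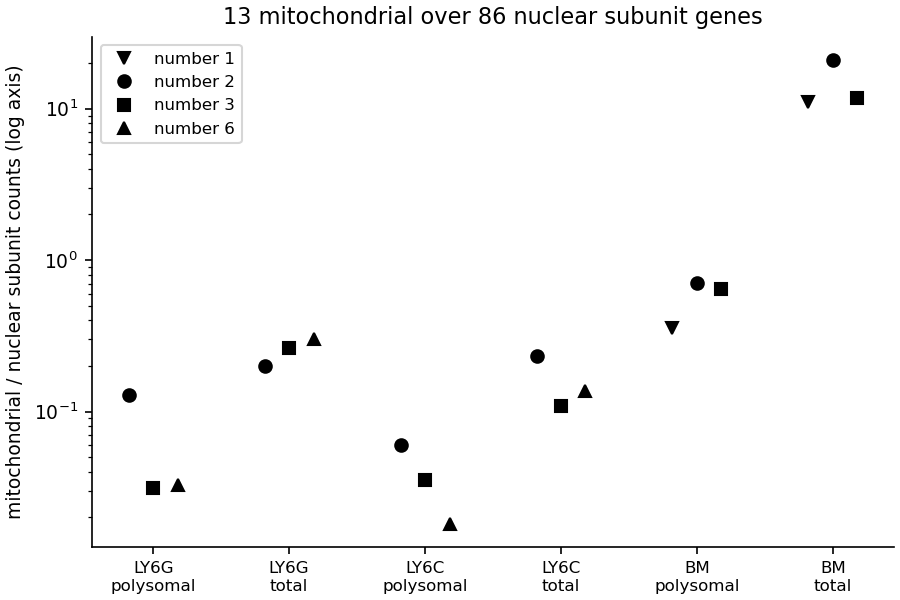
Counts of the 13 mitochondrially encoded subunit genes divided by counts of the 86 nuclear members in each library (log axis; point shape, library number). Of the 13 genes, 6 were listed with at most 14 counts over all libraries and add almost nothing to the ratio. The ratio is 0.018 to 0.129 in sorted-cell polysomal libraries, 0.109 to 0.300 in sorted-cell total libraries, 0.359 to 0.711 in BM polysomal and 11.01 to 21.0 in BM total libraries.

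In BM 3 members rose in polysomal over total RNA, where the test called 3.39% of all genes (2.6% higher and 0.797% lower) and the median of all genes was 0.55. These were Cox6b1, at 33.7, 32.4 and 29.2 CPM in polysomal libraries against 6.35, 3.27 and 4.13 CPM in total libraries (log2 difference 2.82, SE 0.51, adjusted p = 0.00628 by edgeR), Cox5a (2.06, SE 0.52) and Ndufs4, at least 2.11-fold higher against 0 counts. Cox6b1 did not overlap between polysomal and total libraries, which the rule for naming called members asks for and which adds no support. The call of Cox5a was lost when BM polysomal library 1 (1.32), BM total library 1 (2.14), BM total library 2 (2.12) or BM total library 3 (1.77) was left out, and with DESeq2 (1.63), median-ratio factors (1.63) or the compared libraries alone (1.59). The number of calls was 1 without BM polysomal library 1 or BM total library 2. DESeq2 called Cox6b1 higher and Ndufb6 and Uqcr10 lower (adjusted p = 0.00944, 0.0266 and 0.00486).

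LY6G and LY6C cells were compared directly in each kind of RNA. No member passed in polysomal or total RNA, and no gene did (0% called in each, edgeR); DESeq2 called no member. In polysomal RNA 14 of 77 members had a positive difference, where 47.5% of all genes had, with a median log2 difference of -0.42 beside -0.03 for all genes, and 10 members had an unadjusted p under 0.05, where 5.87% of all genes did. In all 3 same-numbered pairs 24 members were lower in LY6G cells, where 22.2% of all genes were, and 2 were higher, where 19.5% were. The pairs did not behave alike: the members' median was 0.18 in pair 2, -0.42 in pair 3 and -0.77 in pair 6, and it was -0.20 without LY6C polysomal library 6 and -0.11 without all libraries numbered 6. In total RNA the members' median was -0.12, 31 positive differences, where 50.4% of all genes had one, and 2 members at an unadjusted p under 0.05, where 3.98% of all genes were. There 23 members were lower in all 3 pairs, where 19.6% of all genes were, and 14 were higher, where 19.3% were.

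The lowest p-values in polysomal RNA belonged to Atp5h, Cox5b and Cox4i1. Atp5h was at 21.4, 22.7 and 21.3 CPM in LY6G libraries 2, 3 and 6, against 30.1, 44.7 and 73.0 CPM in LY6C libraries (log2 difference -1.17, SE 0.38, unadjusted p = 0.0053). Cox5b was at 7.09, 5.75 and 9.18 CPM in LY6G libraries, against 9.45, 15.9 and 25.7 CPM in LY6C libraries (-1.21, SE 0.40, unadjusted p = 0.00685), and Cox4i1 at 52.5, 52.3 and 50.4 CPM, against 54.2, 105.0 and 128.1 CPM (-0.89, SE 0.34, unadjusted p = 0.0176). All LY6G libraries lay below all LY6C libraries, which spread more widely, and the adjusted p was 0.841 for each by edgeR. In total RNA the NADH dehydrogenase core genes Ndufv1 and Ndufs1 came first, at 11.1 ± 2.58 and 15.4 ± 2.93 CPM in LY6G cells, against 18.8 ± 6.37 and 24.6 ± 8.89 CPM in LY6C cells (SD, n = 3 each), with no overlap and an adjusted p of 1 by edgeR. Uqcr10, a small subunit of complex III, was next, with a difference of 0.78 (SE 0.47). The 2 genes were also lower in LY6G cells in polysomal RNA (-0.80, SE 0.34, and -0.69, SE 0.31), without passing.

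The polysomal shift itself, compared between populations as a translational efficiency (an interaction term), passed the edgeR test for no member. Between LY6G and LY6C cells 8 of 77 members had a positive difference, where 45.9% of all genes had, with a median of -0.32 beside -0.03 for all genes. Non-member genes with coding lengths of at most 408 bases, the members' median, had a median of -0.19, and 27.2% of these 624 were positive. Spearman's rho between coding length and this difference was 0.40 over the members and 0.26 over all protein-coding genes tested. The part of length in the members' difference was not tested. There was no call (0%, edgeR), with 0 members at an unadjusted p under 0.05, where 0.0494% of all genes were, and none called by DESeq2. The lowest p-values belonged to the small membrane subunits Atp5k (-1.04, SE 0.69) and Atp5l (-0.81, SE 0.60) and to Uqcr11 (-0.77, SE 0.57). Without LY6C total library 6 the members' median was -0.00. Against BM, 14 members in LY6G and 13 in LY6C cells had an unadjusted p under 0.05 and none passed, where 0.416% of all genes were called for LY6G and 0.338% for LY6C cells and 14.2% and 13.8% had such a p. The members' medians were -0.49 in LY6G and -0.19 in LY6C cells, beside -0.65 and -0.64 for all genes. Cox6b1 had the lowest p, with a difference of -2.36 (SE 0.63, adjusted p = 0.102 by edgeR) in LY6G and -2.31 (SE 0.63, adjusted p = 0.116) in LY6C cells. DESeq2 called Ndufb6 and Uqcr10 higher in both, and Uqcrq higher in LY6C cells.

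Over the 12 sorted-cell libraries most members varied with the family's mean. Pearson's r of a member with the mean log2 CPM of the tested members had a median of 0.83 and exceeded 0.8 for 45 of 77, and was highest for Cox8a (0.97) and lowest for Ndufb2 (-0.53), with Cox7a2l at -0.36. These points share libraries and depth, and each member is part of the mean. The non-member genes with the most similar profile were Mrps16 (0.98), Aprt (0.97), Magoh (0.97), Minos1 (0.97) and Ndufb1-ps (0.97), over the same 12 libraries. Ndufb1-ps carries a complex I symbol but was not among the members, which were protein-coding genes only. Its likeness is therefore not that of a gene unrelated to the family.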

How the data were processed

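Ribosomal-RNA-depleted, stranded total RNA libraries were made from polysomal and total RNA, per the labels' protocols. The deposited table holds raw whole-number counts per Ensembl gene for 18 libraries; STAR 2.5.2a, FastQC, DESeq and DESeq2 and the builds GRCm38 and mm10 are named in the submitters' processing notes, while the counting program and its strand setting are not given in the sources used here. If the counting ignored strand, reads of overlapping antisense genes cannot be told apart. Symbols, biotypes and lengths came from GENCODE M21 by Ensembl identifier (54809 named, 29 not).

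From the counts, 1 edgeR 4.0.16 model with a mean for each of 6 groups was fitted over all 18 libraries (TMM, filterByExpr with a minimum count of 10, robust quasi-likelihood F test, Benjamini-Hochberg over 14181 genes, common dispersion 0.163) in R 4.3.3. SE is the log2 difference divided by the root of F. Differences within pairs use log2 CPM with a prior count of 2. No pair of replicates agreed within sampling noise. The fit was also run on simulated counts, drawn independently for each library. That run cannot speak to deviations that libraries share, and its planted changes were larger than the members' median shifts within sorted cells. Named were called members of 10 CPM or more without overlap (up to 6 in each direction), otherwise the 3 lowest p-values, plus a fixed list of core subunits and isoforms. For members named by the first of these rules, the lack of overlap follows from the rule and adds no support. Members and lists were chosen with earlier results of these data known. Proteins are not shown. Alternatives were DESeq2 1.42.0, median-ratio factors, no low-count filter, compared libraries alone, nuclear protein-coding genes alone, a block for the replicate number and single libraries left out in turn. Added after seeing the data were thinning to 54944 protein-coding counts and leaving out all libraries numbered 6. Same-numbered sorted-cell libraries deviated together (correlations 0.27 to 0.74, all above 0.1), so the numbers pair them, on the evidence of the data; BM pairs did not (0.027, 0.011 and 0.0047).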

Additional observations from a re-analysis of the deposited data

Results flagged for a closer look

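For 3 members the polysomal-minus-total difference had one sign in all 3 pairs of a sorted population and the other sign in all 3 pairs of BM, as means of log2 CPM differences. Ndufb6 averaged 0.555 in LY6G and 0.805 in LY6C cells, against -1.35 in BM, where its 41 polysomal and 21 total counts carry the value. Uqcrq averaged 0.548 in LY6G and 0.903 in LY6C cells, against -0.495 in BM, where its pairs were -0.36, -0.07 and -1.06. Cox6b2 averaged -0.577 in LY6C cells, against 2.54 in BM. Its BM pairs were 7.28, 0.30 and 0.03, so that mean rests on pair 1, whose total library had 0 counts, and the fitted BM difference was 0.98 (SE 0.96). Same-numbered BM libraries were not shown to pair, and opposite signs in themselves are no test of the difference. In the edgeR interaction fit Ndufb6 had an adjusted p of 0.192 for LY6G and 0.169 for LY6C against BM, Uqcrq 0.401 and 0.243, and Cox6b2 0.691 for LY6C against BM, so no difference passed; DESeq2 gave Ndufb6 0.0422 for LY6G and 0.0207 for LY6C against BM, and Uqcrq 0.0476 for LY6C against BM. The part of low BM counts in these signs was not tested.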

How the results depend on the processing

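Unless noted below, the counts of members called were within 1.5 times of those reported under the alternatives. With the compared libraries alone, LY6C minus BM total RNA gave 9 calls and BM polysomal minus total RNA 1. After thinning to equal protein-coding counts, where 19 members were left to test, the calls were 8 for LY6G and 6 for LY6C minus BM in total RNA, 7 for each in polysomal RNA and 0 for polysomal minus total RNA in BM; fewer members tested is part of that construction. Median-ratio factors gave 1 call for BM polysomal minus total RNA. With the replicate block that comparison gave 5 calls. Within the 1.5 times, LY6G minus BM then gave 27 in total and 39 in polysomal RNA and LY6C minus BM 23 and 38. The comparisons within sorted cells stayed at 0, and BM libraries were not shown to pair. DESeq2 called 3 members for efficiency in LY6C and 2 in LY6G against BM. Leaving out single libraries passed the 1.5 times only for LY6C minus BM in polysomal RNA (18 to 29 calls) and BM polysomal minus total RNA (1 to 4). It gave 22 to 26 calls for LY6G and 16 to 23 for LY6C minus BM in total RNA. For LY6G minus BM in polysomal RNA it gave 22 to 27. With all counts as denominator the members' share was 0.522% in LY6C polysomal, 0.319% in LY6C total, 0.0198% in BM polysomal and 0.00148% in BM total RNA; the cause was not tested. Leaving out single libraries, the shares were 0.540% to 0.621% in LY6G polysomal, 0.441% to 0.554% in LY6G total, 0.632% to 0.731% in LY6C polysomal, 0.435% to 0.633% in LY6C total, 0.623% to 0.719% in BM polysomal and 0.527% to 0.581% in BM total RNA. No called named member changed sign; of 67 calls, DESeq2, median-ratio factors and the replicate block each lost 2, nuclear protein-coding genes alone 1, and no low-count filter and leaving out libraries numbered 6 each lost 6. The compared libraries alone lost 10 of 64, thinning 8 of 31 and leaving out single libraries 69 of 402. Depth limits BM total RNA most, where 9 tested members had 0 counts and 17 had 1 to 3 over 3 libraries.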
